A study of Mus musculus with 12 samples.

Results

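The enzymes that make and break down eicosanoids, the oxygenated signalling lipids derived from arachidonic acid, were followed through 10 genes chosen by name for their place in the pathway: *Pla2g4a*, *Ptgs1*, *Ptgs2*, *Tbxas1*, *Hpgds*, *Hpgd*, *Alox12*, *Alox5*, *Alox5ap* and *Ltc4s*. The choice was made with earlier results of these data known. Each gene was read from its probe set with 1 symbol in the platform annotation, and 9 of the 10 were measured among 19937 genes; *Ptgs1*, a cyclooxygenase gene, had no such probe set and was not analysed here. Cells came from mouse fetal livers of E14.5 embryos, in 3 populations with 4 arrays each. Megakaryocytes (MEG) were grown from KIT-positive progenitors in stem cell factor and thrombopoietin and then in thrombopoietin alone, and were enriched with beads on CD41. Erythroblasts (ERY) were isolated by Ter119 bead selection; Ter119 marks maturing red cells. Hematopoietic stem/progenitor cells (HSPC), which carry the label HSC on the arrays, were lineage-negative cells sorted for Sca1. MEG were cultured and ERY and HSPC were not, so culture and lineage cannot be told apart. The labels name no mutation and no drug treatment for any group.

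Eicosanoid synthesis begins when a phospholipase frees arachidonic acid from membrane phospholipids. Cyclooxygenases convert the acid into a short-lived endoperoxide, which terminal synthases turn into thromboxane, prostaglandins or prostacyclin. Lipoxygenases use the same acid to make hydroperoxides and leukotrienes. Platelets, the anucleate products of megakaryocytes, are known for making thromboxane, which constricts vessels and activates further platelets, and for a lipoxygenase of their own encoded by *Alox12*. The leukotriene enzymes are best known from neutrophils, macrophages and mast cells.

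Promoter sequence is shown for the 4 members whose MEG level stood furthest above HSPC, since their values were all higher in MEG and the study concerns GATA, ETS and RUNX factors in these cells. RefSeq promoters of build GRCm38.p6 were matched by symbol for 9 of the 10 genes, all but *Alox5ap*, and the 250 bases before each start are printed 5′ to 3′ on the gene's strand. Capitals mark the words searched on both strands. The GATA words were AGATAA, then AGATAG, then TGATAA, and lastly TGATAG. The ETS words were AGGAAG, with CGGAAG as the other form. The RUNX words were TGTGGT, with TGCGGT as the other form. *Alox12* is at chr11:70255371-70255620 (minus strand), *Tbxas1* at chr6:38918736-38918985 (plus strand), *Alox5* at chr6:116461179-116461428 (minus strand), and *Pla2g4a* has a first start at chr1:149961291-149961540 and a second at chr1:149922440-149922689 (both minus strand). The *Tbxas1* window and the second *Pla2g4a* window lie inside the annotated span of their genes and not before its outermost start.
Alox12: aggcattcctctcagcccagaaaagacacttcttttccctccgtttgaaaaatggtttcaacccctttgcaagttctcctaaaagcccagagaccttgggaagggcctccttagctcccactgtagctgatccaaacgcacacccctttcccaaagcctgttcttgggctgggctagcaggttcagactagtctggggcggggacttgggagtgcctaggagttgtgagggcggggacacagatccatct
Tbxas1: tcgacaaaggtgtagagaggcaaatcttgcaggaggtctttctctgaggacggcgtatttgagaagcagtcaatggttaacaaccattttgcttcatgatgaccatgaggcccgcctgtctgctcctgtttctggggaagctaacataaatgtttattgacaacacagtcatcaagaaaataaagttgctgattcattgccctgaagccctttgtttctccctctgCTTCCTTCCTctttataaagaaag
Alox5: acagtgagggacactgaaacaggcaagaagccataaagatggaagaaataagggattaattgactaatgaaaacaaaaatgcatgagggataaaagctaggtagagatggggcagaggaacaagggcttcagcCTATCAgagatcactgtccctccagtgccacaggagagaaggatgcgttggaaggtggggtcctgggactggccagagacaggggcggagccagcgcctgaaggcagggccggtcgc
Pla2g4a, first start: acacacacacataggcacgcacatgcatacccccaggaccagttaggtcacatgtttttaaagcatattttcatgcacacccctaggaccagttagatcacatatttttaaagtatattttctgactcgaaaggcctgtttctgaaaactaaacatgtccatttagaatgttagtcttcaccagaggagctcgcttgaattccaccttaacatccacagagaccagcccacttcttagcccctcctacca
Pla2g4a, second start: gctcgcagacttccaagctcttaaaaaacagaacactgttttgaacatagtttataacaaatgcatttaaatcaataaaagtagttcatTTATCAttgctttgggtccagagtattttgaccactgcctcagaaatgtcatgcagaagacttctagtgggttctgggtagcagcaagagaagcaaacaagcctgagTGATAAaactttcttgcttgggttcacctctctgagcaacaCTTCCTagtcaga

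No kind of word was found in all 4 genes. The *Alox12* window and the first *Pla2g4a* window held none of the words. *Tbxas1* held the ETS word on the opposite strand at 2 places that overlap by 2 bases, at positions -24 and -20 from the start. *Alox5* held 1 GATA word at position -117. The second *Pla2g4a* window held 2 GATA words, at -161 and -54, and 1 ETS word at -13. Of 32841 mouse promoter windows of this length, 26.5% held a GATA word, 39.2% an ETS word and 18.6% a RUNX word, so such matches are common. They describe letters in a window and not binding.

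Values are RMA log2 signals per probe set, so a 2-fold change corresponds to a difference of 1. Array medians lay between 5.99 and 6.25. Olfactory receptor genes served as array background: the median over 1027 of them was 4.29 and their 95th percentile 6.20. A gene was called higher or lower above a 2-fold change at a limma adjusted p under 0.05, from 1 fit to all 12 arrays with Benjamini-Hochberg adjustment over all genes. In whole populations, fewer expressing cells and less RNA per cell cannot be told apart. All 8 measured megakaryocyte markers were called higher in MEG than in HSPC, and all 9 measured erythroblast markers in ERY than in HSPC. The shares of all genes called higher were 8.77% and 8.35%. In ERY against HSPC, 7 of 13 macrophage and 8 of 10 hepatocyte markers were also called higher, and 0 lower. In MEG against ERY, all 10 hepatocyte markers were called lower, as were 6 macrophage markers, with 2 higher (7.77% and 8.75% of all genes). What part such cells had in the differences below was not tested. HSPC arrays 1 and 2 stood apart from HSPC arrays 3 and 4 for several members, and MEG array 3 stood apart in markers of other cells. Its summed log2 level of the neutrophil and monocyte list was 12.51, against 9.35 to 10.31 on the other MEG arrays. That of the mast cell and basophil list was 11.21 against 8.87 to 9.76, and that of the macrophage list 13.08 against 11.19 to 12.24. The largest mast cell and basophil values on MEG array 3 were *Cpa3* (9.74), *Prss34* (8.79), *Kit* (8.30), *Hdc* (8.15) and *Mcpt8* (8.07). *Kit* was also on the stem and progenitor list. *Cma1*, *Tpsab1*, *Tpsb2* and *Mrgprb1* were lowest on MEG array 3 among the MEG arrays. Of the 12 genes, 5 had MEG means less than 1 log2 unit above the olfactory receptor median. For the enzymes and other genes named in the text, values without these HSPC arrays or MEG array 3 are given beside the result. This was done where a call changed or a called value moved by over 1.5 times.

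*Alox12*, *Tbxas1*, *Alox5* and *Pla2g4a* were higher in MEG than in HSPC on every array, by log2 differences of 2.46 to 4.89. *Hpgds* was higher by 1.49 with overlapping arrays. These 5 of the 9 measured enzymes were called higher in MEG and 0 were called lower, against 8.77% of all genes called higher and 11.4% called lower. In ERY, 0 enzymes were called higher than HSPC and 3 were called lower, *Alox5ap*, *Alox5* and *Pla2g4a*, where 8.35% of all genes were called higher and 12.3% lower. Between the lineages, 6 of 9 were called higher in MEG than in ERY and 0 lower, with 8.75% and 7.77% of all genes called. At an unadjusted p under 0.05, 1 enzyme (*Ltc4s*) was lower in MEG than in HSPC, 0 were higher in ERY than in HSPC and 0 were lower in MEG than in ERY. The median difference of the 9 enzymes was 1.49 for MEG against HSPC, -0.49 for ERY against HSPC and 3.51 for MEG against ERY, and the median of all genes was -0.02, 0.03 and -0.02 in these comparisons. Counted by arrays that did not overlap, MEG had 5 enzymes above HSPC and 0 below, the 5 being the 4 above and *Alox5ap*, against 12% and 17.4% of all genes. For ERY against HSPC the counts were 0 higher and 3 lower (16.3% and 20.9% of all genes), and for MEG against ERY 5 higher and 0 lower (15.2% and 17.7%). MEG and ERY were both set against the same HSPC arrays, and all 3 comparisons share arrays. Because the enzymes were chosen with earlier results of these data known, the shares of all genes give no independent test of them.

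**Figure D1:**
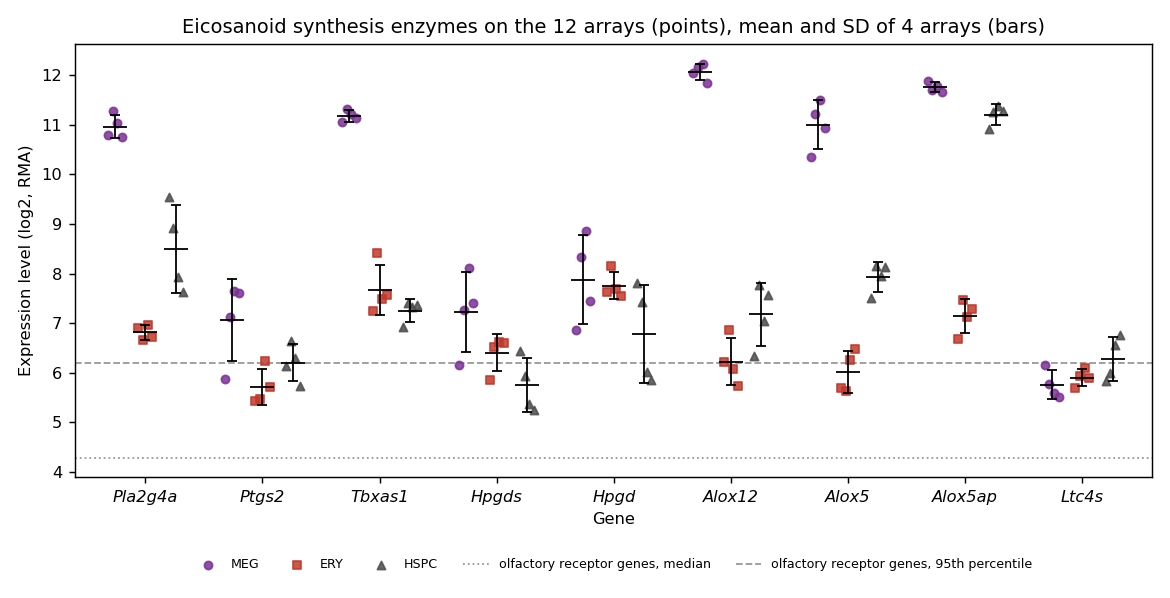
RMA log2 level of the 9 measured eicosanoid enzymes on each of the 4 arrays of MEG, ERY and HSPC, with the mean and SD of each population and the olfactory receptor background. Alox12, Tbxas1, Alox5 and Pla2g4a lie above 10 on every MEG array and below 10 on every ERY and HSPC array.

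*Pla2g4a*, which encodes the cytosolic phospholipase that releases arachidonic acid, is the entry point of the pathway. Its log2 level was 10.80, 11.27, 11.04 and 10.75 on MEG arrays 1 to 4, 6.90, 6.66, 6.97 and 6.71 on the ERY arrays, and 9.54, 8.91, 7.93 and 7.62 on the HSPC arrays. The 3 populations did not overlap, and HSPC arrays 1 and 2 were the higher of the HSPC arrays. MEG exceeded HSPC by 2.46 (SE 0.34, adjusted p = 0.000137, limma, n = 4 each) and ERY by 4.15 (SE 0.34, adjusted p = 1.07e-06). ERY was lower than HSPC by a log2 difference of -1.69 (SE 0.34, adjusted p = 0.00177). Without HSPC arrays 1 and 2 this difference was -0.96 (adjusted p = 0.00113), short of 2-fold, and the MEG difference was 3.19. Without HSPC arrays 3 and 4 the MEG difference was 1.74 and remained above 2-fold.

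*Ptgs2* encodes the inducible cyclooxygenase. Its log2 level was 5.87, 7.13, 7.64 and 7.61 on the MEG arrays, 5.43, 5.47, 6.23 and 5.72 on the ERY arrays, and 6.13, 6.63, 6.30 and 5.73 on the HSPC arrays. MEG array 1 lay among the ERY and HSPC arrays and the other 3 MEG arrays lay above all of them. Among the MEG arrays *Ptgs2* and the summed macrophage level were both lowest on array 1 and highest on array 3. The part of such cells in the *Ptgs2* level was not tested. The ERY and HSPC means, 5.71 and 6.20, were below the 95th percentile of olfactory receptor genes. *Ptgs2* was called higher in MEG than in ERY, by 1.35 (SE 0.35, adjusted p = 0.0124, limma), and this was 1.16 (adjusted p = 0.0415) without MEG array 3. Against HSPC the difference was 0.86 (95% interval 0.09 to 1.63, adjusted p = 0.0803) and was not called. Without MEG array 1 it was 1.26 (adjusted p = 0.00234) and passed both thresholds.

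*Tbxas1* encodes thromboxane synthase, the terminal enzyme for the lipid that platelets release. It read 11.05, 11.33, 11.22 and 11.13 on the MEG arrays, 7.24, 8.41, 7.48 and 7.56 on the ERY arrays, and 6.91, 7.40, 7.32 and 7.36 on the HSPC arrays. All MEG arrays stood above all others and between 11.05 and 11.33, while ERY and HSPC overlapped. The mean was 11.18 ± 0.12 in MEG, 7.67 ± 0.51 in ERY and 7.25 ± 0.23 in HSPC (SD, n = 4). MEG exceeded HSPC by 3.93 (SE 0.22, adjusted p = 1.04e-07, limma), a 15.3-fold difference, and ERY by 3.51 (SE 0.22, adjusted p = 9.28e-08). ERY differed from HSPC by 0.42 (95% interval -0.06 to 0.90, adjusted p = 0.181). The highest ERY value was on array 2, which also had the highest summed macrophage level of the ERY arrays, 12.92 against 11.97 to 12.67, and the highest summed megakaryocyte level, 11.99 against 10.96 to 11.22. Their part in the *Tbxas1* value was not tested. Without ERY array 2 the difference was 0.18.

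*Hpgds* encodes hematopoietic prostaglandin D synthase, and *Hpgd* the dehydrogenase that inactivates prostaglandins. *Hpgds* read 6.16, 7.26, 8.11 and 7.40 on the MEG arrays, 5.85, 6.53, 6.62 and 6.60 on the ERY arrays, and 6.43, 5.94, 5.36 and 5.26 on the HSPC arrays. MEG array 1 lay below HSPC array 1, and the other 3 MEG arrays lay above every ERY and HSPC array. *Hpgds* was called higher in MEG than in HSPC, by 1.49 (SE 0.38, adjusted p = 0.00834, limma), with an HSPC mean of 5.75, which was under 6.20 and so within background. The difference was 1.19 (adjusted p = 0.023) without MEG array 3, and 1.05 (adjusted p = 0.116) without HSPC arrays 3 and 4, where the call was lost. MEG array 3 was highest for *Hpgds* and also for the summed macrophage, mast cell and basophil, and neutrophil levels. What part other cells had in the value was not tested. *Hpgds* in MEG differed from ERY by 0.83 (adjusted p = 0.139), and by 1.19 without MEG array 1 (adjusted p = 0.0141), where it was called, and in ERY it differed from HSPC by 0.65 (adjusted p = 0.23).

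*Hpgd* was not called in any comparison. It read 6.87, 8.34, 8.87 and 7.44 on the MEG arrays, 7.62, 8.15, 7.69 and 7.55 on the ERY arrays, and 7.80, 7.44, 6.02 and 5.86 on the HSPC arrays. HSPC arrays 1 and 2 lay within the range of the other populations and HSPC arrays 3 and 4 lay below it. The difference from HSPC was 1.10 in MEG (95% interval 0.05 to 2.15, adjusted p = 0.0992, limma) and 0.97 in ERY (95% interval -0.07 to 2.02, adjusted p = 0.157). It rested on which HSPC arrays were used: without HSPC arrays 1 and 2 it was 1.94 in MEG and 1.81 in ERY, both called, and without HSPC arrays 3 and 4 it was 0.26 in MEG and 0.13 in ERY. Leaving out HSPC array 1 alone gave 1.44 in MEG and 1.32 in ERY, and leaving out MEG array 1 gave 1.44 in MEG, all called. Between MEG and ERY the difference was 0.13 (95% interval -0.92 to 1.17), and its sign turned without MEG array 2 or MEG array 3.

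*Alox12*, the platelet-type lipoxygenase gene, had the largest difference of the 9 enzymes in MEG against HSPC and in MEG against ERY. It read 12.04, 12.17, 12.22 and 11.84 on the MEG arrays, 6.21, 6.87, 6.07 and 5.73 on the ERY arrays, and 6.35, 7.76, 7.05 and 7.57 on the HSPC arrays. The MEG arrays were at least 4 log2 units above every other array, and ERY and HSPC overlapped. MEG exceeded HSPC by 4.89 (SE 0.30, adjusted p = 2.33e-07, limma), a 29.6-fold difference, and ERY by 5.85 (SE 0.30, adjusted p = 1.42e-08), a 57.7-fold difference. Without MEG array 3 the difference from HSPC was 4.84. ERY was at -0.96 relative to HSPC (SE 0.30, adjusted p = 0.0241), just short of the 2-fold threshold. Leaving out HSPC array 1, HSPC array 3 or ERY array 2 gave -1.24, -1.01 and -1.18, and leaving out HSPC arrays 1 and 2 gave -1.09, all called lower.

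*Alox5* encodes the lipoxygenase that makes leukotriene precursors. Its log2 level was 10.35, 11.22, 11.51 and 10.94 on the MEG arrays, 5.70, 5.63, 6.26 and 6.48 on the ERY arrays, and 7.50, 8.16, 7.96 and 8.12 on the HSPC arrays. The 3 populations did not overlap and were ordered MEG, HSPC, ERY. MEG exceeded HSPC by 3.07 (SE 0.27, adjusted p = 4.17e-06, limma), an 8.40-fold difference, and ERY by 4.99 (SE 0.27, adjusted p = 2.15e-08). ERY was lower than HSPC by a log2 difference of -1.92 (SE 0.27, adjusted p = 0.00012), and its mean of 6.02 was below the 95th percentile of olfactory receptor genes. *Alox5* was highest in MEG on array 3, and without that array the difference from HSPC was 2.90. Among the MEG arrays *Alox5* and the summed mast cell and basophil, neutrophil and macrophage levels were all lowest on array 1 and highest on array 3. What part other cells had in the *Alox5* level was not tested.

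*Alox5ap* encodes FLAP, the membrane protein that presents arachidonic acid to the *Alox5* product. It read 11.88, 11.70, 11.79 and 11.66 on the MEG arrays, 6.68, 7.47, 7.13 and 7.29 on the ERY arrays, and 10.91, 11.26, 11.38 and 11.27 on the HSPC arrays. HSPC stood within 1 log2 unit of MEG, and ERY stood far below both. ERY was lower than HSPC by a log2 difference of -4.06 (SE 0.17, adjusted p = 4.94e-09, limma), a 16.7-fold difference, and MEG exceeded ERY by 4.61 (SE 0.17, adjusted p = 8.88e-10). MEG exceeded HSPC on every array by 0.55 (95% interval 0.18 to 0.92, adjusted p = 0.024), which is under 2-fold and was not called. The summed neutrophil and monocyte level was 14.01 to 14.31 in HSPC, 9.51 to 10.17 in ERY, and 9.35, 10.31, 12.51 and 9.80 on the MEG arrays. The HSPC means of *Mpo*, *Ctsg*, *Elane* and *Prtn3* were 12.49, 11.99, 11.69 and 11.66. *Csf3r*, *S100a8*, *S100a9* and *Lcn2* had 9.79, 7.75, 6.86 and 6.74. *Camp*, *Ngp* and *Ltf*, at 5.90, 5.77 and 5.40, were below the 95th percentile of olfactory receptor genes. What part other cells had in the HSPC level of *Alox5ap* was not tested.

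*Ltc4s* encodes leukotriene C4 synthase, which joins glutathione to the leukotriene precursor. It read 6.16, 5.78, 5.58 and 5.52 on the MEG arrays, 5.68, 5.93, 6.09 and 5.90 on the ERY arrays, and 5.83, 5.99, 6.55 and 6.75 on the HSPC arrays. All 3 populations overlapped, and the MEG and ERY means, 5.76 and 5.90, were below the 95th percentile of olfactory receptor genes. It was called in none of the 3 comparisons, with differences of -0.52 for MEG against HSPC (95% interval -0.99 to -0.06, adjusted p = 0.0793, limma), -0.38 for ERY against HSPC (adjusted p = 0.218) and -0.14 for MEG against ERY (adjusted p = 0.716). Without HSPC arrays 1 and 2 the *Ltc4s* difference was -0.89 for MEG (adjusted p = 0.00289) and -0.75 for ERY (adjusted p = 0.00834) against HSPC, still short of 2-fold, and without HSPC arrays 3 and 4 it was -0.15 for MEG and -0.01 for ERY. *Alox5* was thus called higher in MEG than in HSPC, and *Ltc4s* was not.

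**Figure D2:**
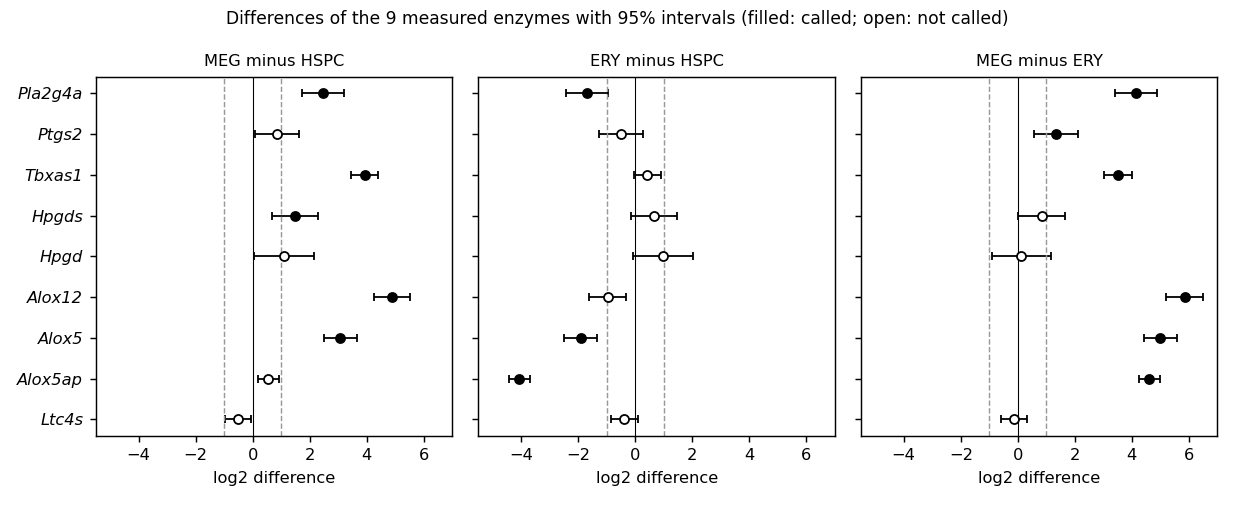
Log2 differences of the 9 measured enzymes in MEG against HSPC, ERY against HSPC and MEG against ERY, with 95% intervals from limma, filled points for called genes, open points for others and dashed lines at the 2-fold threshold. Alox12, Alox5, Alox5ap, Pla2g4a and Tbxas1 differ by 3.51 to 5.85 between MEG and ERY, and Alox5ap alone among them is within 2-fold between MEG and HSPC.

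The replicates differed in how tightly they held each enzyme. In MEG the SD over 4 arrays was 0.10 for *Alox5ap*, 0.12 for *Tbxas1* and 0.17 for *Alox12*, against 0.81 for *Hpgds*, 0.83 for *Ptgs2* and 0.89 for *Hpgd*; the median SD of 15277 genes above background was 0.29 in MEG. In HSPC the SD was 0.89 for *Pla2g4a* and 0.98 for *Hpgd*, against a median of 0.32. Over the 12 arrays, after each gene was centred on its own mean, the members closest to each other were *Hpgds* and *Hpgd*, with a root mean square difference of 0.48 log2 units, then *Ptgs2* and *Hpgds* (0.58) and *Alox5* and *Pla2g4a* (0.72). Measured the same way over 15276 other genes, the nearest to *Tbxas1* were *Fhl1* (0.29), the integrin gene *Itga2* (0.33) and *Clec1b* (0.35), a receptor gene of platelets. The nearest to *Alox12* were *Itgb3* (0.33), the phosphodiesterase gene *Pde5a* (0.42) and the serotonin transporter gene *Slc6a4* (0.44). *Alox5* was nearest to *Nrgn*, *Slc24a3* and *Rbpms2* (0.42 to 0.44), and *Pla2g4a* to *Slain2*, *Mctp1* and *Btk* (0.24 to 0.28). *Alox5ap* was nearest to *Plcg2* (0.20), *Ifitm3* (0.22) and *Cd52* (0.28). *Ptgs2* was nearest to *Spred2*, *P2ry14* and *Arhgef7* (0.33 to 0.37), *Hpgds* to *Ddx60*, *Gm6377* and *Taf13* (0.33 to 0.34), and *Hpgd* to *Tifa*, *Oxsr1* and *Zmpste24* (0.33 to 0.35). *Ltc4s* was nearest to *Trim11*, *2310068J16Rik* and *Igsf9b* (0.09 to 0.10), a match between nearly flat profiles.

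Beyond the 10 enzymes, 8 lists covered the rest of the arachidonic acid pathway, with 79 of 86 genes measured. Of the 79, 8 were called higher and 11 lower in MEG than in HSPC (10.1% and 13.9%), 6 higher and 13 lower in ERY than in HSPC (7.59% and 16.5%), and in MEG relative to ERY 13 were called higher and 8 lower (16.5% and 10.1%). The corresponding shares of all genes were 8.77% and 11.4%, 8.35% and 12.3%, and 8.75% and 7.77%, so the share higher in MEG than in ERY was the one furthest from that of all genes. Across the settings that left out arrays, 11 to 14 of the 79 genes were called up in MEG relative to ERY and 8 to 9 down. Where a population's mean was below 6.20, within the upper range of the olfactory receptor probes, a difference rests on array background on that side. Among the called genes named below this held in HSPC for *Pla2g10*, *Mgll*, *Pla2g4c*, *Mboat2*, *Ptgir*, *Cysltr2* and *Cyp2c23*, in MEG for *Pla2g4c*, *Mboat1*, *Cbr1* and *Cyp2c23*, and in ERY for *Pla2g10*, *Mboat1*, *Ggt5*, *Ptgir*, *Ptger3*, *Cysltr1* and *Cysltr2*. The median difference of the 79 genes was -0.15 for MEG against HSPC, -0.07 for ERY against HSPC and -0.03 for MEG against ERY.

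Among 17 measured genes of arachidonate release, *Pla2g10*, a secreted phospholipase gene, was higher in MEG than in HSPC by 1.97 (SE 0.17, adjusted p = 3.21e-06, limma), and *Pla2g6*, a calcium-independent phospholipase gene, was lower by a log2 difference of -1.10. The *Pla2g6* call was lost without HSPC array 3, HSPC array 4 or MEG array 4, at -0.98, -0.90 and -0.99, and without HSPC arrays 3 and 4, at -0.62, and in ERY *Pla2g6* was called lower only without HSPC array 1 (-1.19) or HSPC arrays 1 and 2 (-1.37). The remaining 15 genes were not called in MEG against HSPC. Of all genes, 8.77% were called higher and 11.4% lower in that comparison, so these counts are little different from those shares. In ERY, *Mgll*, the gene of monoacylglycerol lipase, read 10.46, 10.69, 10.49 and 10.73, against 5.88, 5.47, 5.46 and 5.49 in HSPC. ERY thus exceeded HSPC by 5.02 (SE 0.19, adjusted p = 2.91e-09), and MEG differed from ERY by -4.28. *Pla2g4c*, a relative of *Pla2g4a*, ran opposite to it, higher in ERY than in HSPC by 2.48 (adjusted p = 2.15e-06) and in MEG lower than in ERY, with a difference of -2.86. *Pla2g15*, of lysosomal phospholipase A2, was lower in ERY than in HSPC, with a difference of -1.83, and higher in MEG than in ERY by 1.55.

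A list for the return of fatty acids to phospholipids had 10 measured genes, and their use of arachidonic acid was not tested. In MEG, 2 were called higher and 3 lower than in HSPC (8.77% and 11.4% of all genes). In ERY, 2 were called higher and 4 lower than in HSPC (8.35% and 12.3%). Without HSPC arrays 3 and 4 the counts were 1 higher and 2 lower in MEG and 2 and 3 in ERY. Without HSPC arrays 1 and 2 they were 3 and 3 in MEG and 3 and 4 in ERY. *Acsl4*, an acyl-CoA synthetase with a preference for arachidonic acid, was higher in MEG by 2.31 (SE 0.49, adjusted p = 0.00269, limma), with MEG arrays at 9.42, 10.16, 10.17 and 9.45 and HSPC arrays at 9.05, 7.96, 6.74 and 6.20, an SD of 1.28 in HSPC. Without HSPC arrays 3 and 4 the *Acsl4* difference was 1.29 (adjusted p = 0.0166). In ERY *Acsl4* was not called against HSPC, at 1.04, and was called at 2.05 without HSPC arrays 1 and 2 and at 1.56 without HSPC array 1; in MEG against ERY, at 1.27, it was called without HSPC array 1, array 4 or either pair. *Mboat2* was higher in MEG by 1.66, a call lost without HSPC arrays 3 and 4 (1.49, adjusted p = 0.0739), and in ERY by 3.40, and *Lpcat4* was lower in MEG, at -2.89, and in ERY, at -3.03. *Lpcat1* was higher in ERY than in HSPC by 2.31, and in MEG it was below ERY, at -3.26; against HSPC it was -0.95 in MEG, and was called lower without MEG array 2 or 3, at -1.09 and -1.08. *Mboat1* was lower than in HSPC in MEG, at -2.19, and in ERY, at -2.11. *Mboat7*, whose product places arachidonic acid in phosphatidylinositol, was lower in ERY than in HSPC, at -2.08, and higher in MEG than in ERY by 2.40.

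Of 7 measured terminal prostanoid synthases other than the members, 0 were called higher in any comparison by limma, and 0 were higher at an unadjusted p under 0.05. Of all genes, 8.77%, 8.35% and 8.75% were called higher in the 3 comparisons, so a count of 0 among 7 is little different from that share. *Ptges2*, a prostaglandin E synthase gene, was lower than in HSPC in MEG, at -1.94 (SE 0.35, adjusted p = 0.000986, limma), and in ERY, at -1.77; without HSPC arrays 3 and 4 these were -1.29 and -1.12, both still called. *Cbr1*, a carbonyl reductase gene, was lower in MEG, at -1.74. Of the 5 other lipoxygenase genes, 0 were called in any comparison by limma, and 0 differed at an unadjusted p under 0.05. Between 7.77% and 12.3% of all genes were called in each direction of a comparison, so 0 of 5 says little about these genes. Of 9 genes of leukotriene and hydroperoxide metabolism, *Mgst3*, a microsomal glutathione transferase gene, differed from HSPC by -1.90 in MEG and 3.09 in ERY. *Lta4h*, which makes leukotriene B4, was lower than in HSPC in MEG, at -1.31, and in ERY, at -1.25, and was called in neither without HSPC arrays 1 and 2, at -0.81 and -0.75. The glutathione peroxidase gene *Gpx1* was lower in MEG than in HSPC, at -2.07, and *Gpx4* was higher, at 1.07. The *Gpx4* difference was under 2-fold without HSPC array 1 (0.84), MEG array 1 (0.96) or HSPC arrays 1 and 2 (0.78), and in ERY it was 0.72, called at 1.01 without HSPC arrays 3 and 4. *Ggt5*, a gamma-glutamyltransferase gene, was higher in MEG than in ERY by 1.31, and in ERY against HSPC it was -0.82, called at -1.11 without HSPC arrays 1 and 2.

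**Figure D3:**
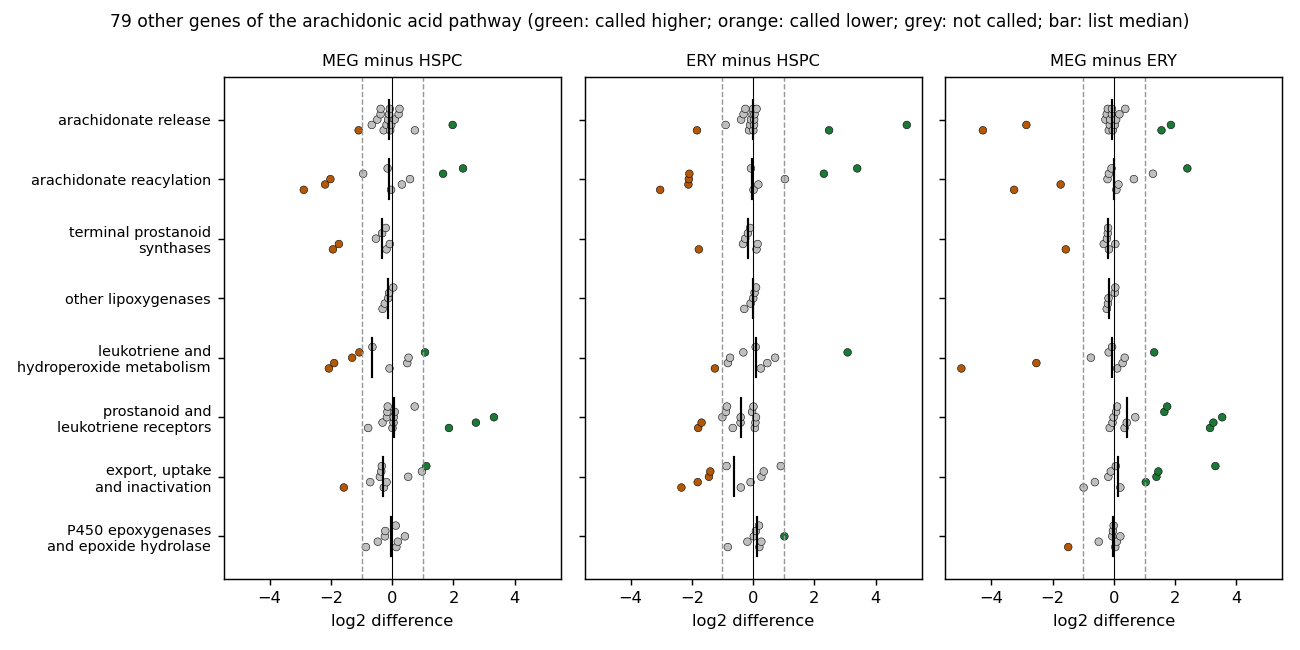
Log2 differences of the measured genes of the 8 pathway lists outside the 10 enzymes, in MEG against HSPC, ERY against HSPC and MEG against ERY, with 1 point per gene (green called higher, orange called lower, grey not called), a bar at each list's median and dashed lines at 2-fold. Of 79 genes, 8, 6 and 13 are called higher in the 3 panels and 11, 13 and 8 lower.

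Receptors that bind the products of these enzymes were measured for 13 of 14 genes. In MEG 3 were called higher than in HSPC and 0 lower, against 8.77% and 11.4% of all genes. In ERY 0 were called higher than in HSPC and 2 lower, against 8.35% and 12.3% of all genes. Without HSPC arrays 3 and 4 the counts were 3 higher and 1 lower in MEG and 0 and 3 in ERY. *Ptger4* was then called lower in both, at -1.06 and -1.16. Without HSPC arrays 1 and 2 the counts were 4 and 0 in MEG and 0 and 3 in ERY. Between the lineages 5 were called higher in MEG than in ERY and 0 lower, against 8.75% and 7.77% of all genes. At an unadjusted p under 0.05, 1 receptor was lower in MEG than in HSPC, 0 were higher in ERY than in HSPC and 0 were lower in MEG than in ERY. *Cysltr2*, a receptor gene for cysteinyl leukotrienes, read 5.87, 8.10, 7.37 and 6.52 on the MEG arrays, 3.58, 3.73, 3.91 and 3.66 on the ERY arrays, and 3.59, 3.66, 3.65 and 3.68 on the HSPC arrays. ERY and HSPC were under the olfactory receptor median, so the difference of 3.32 between MEG and HSPC (SE 0.36, adjusted p = 2.27e-05, limma) rests on array background on its lower side. *Ptgir*, the prostacyclin receptor gene, read 7.90, 9.27, 9.32 and 8.59 in MEG, 5.60, 5.67, 5.56 and 5.71 in ERY and 5.86, 6.01, 6.14 and 6.16 in HSPC. MEG exceeded HSPC by 2.73 (adjusted p = 8.18e-06).

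*Ptger3*, a prostaglandin E receptor gene, separated all 3 populations. It read 9.08, 9.47, 9.36 and 8.55 in MEG, 5.47, 5.75, 5.57 and 5.55 in ERY and 7.06, 7.40, 7.14 and 7.45 in HSPC. MEG exceeded HSPC by 1.85 (adjusted p = 1.49e-05, limma), and ERY was at -1.68 (adjusted p = 2.22e-05). *Tbxa2r*, the receptor gene for the thromboxane that the *Tbxas1* product makes, was not called in MEG against HSPC. It read 7.003, 9.11, 8.72 and 7.92 in MEG, 6.18, 6.83, 6.999 and 6.16 in ERY, and 7.32, 8.18, 8.90 and 8.94 in HSPC. MEG overlapped HSPC, with a difference of -0.15 (95% interval -1.14 to 0.85, adjusted p = 0.832), and exceeded ERY by 1.65 (adjusted p = 0.017), a call lost without ERY array 1, ERY array 4, MEG array 2 or MEG array 3, at 1.52, 1.52, 1.34 and 1.47 (adjusted p = 0.0526 to 0.0538). ERY was lower than HSPC, at -1.79 (adjusted p = 0.0085), and at -1.21 without HSPC arrays 3 and 4 (adjusted p = 0.117). *Cysltr1* was higher in MEG than in ERY by 1.74 (adjusted p = 0.0128), with its highest MEG value, 8.27, on array 3, without which it was still called. Against HSPC *Cysltr1* was 0.73 in MEG and not called in either lineage, and MEG was called higher without HSPC array 1 (1.18) or HSPC arrays 1 and 2 (1.41) and ERY lower without HSPC arrays 3 and 4 (-1.68).

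**Figure D4:**
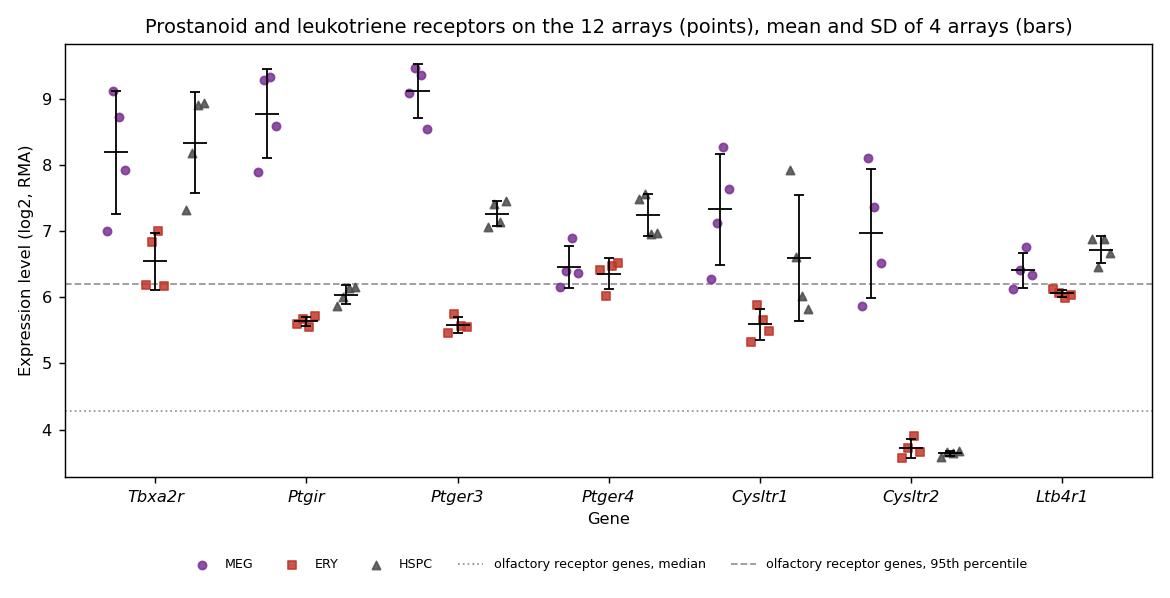
RMA log2 level of 7 eicosanoid receptor genes on each array of MEG, ERY and HSPC, with the mean and SD of each population and the olfactory receptor background. Ptgir, Ptger3 and Cysltr2 lie above all ERY and HSPC arrays in MEG, and Tbxa2r overlaps between MEG and HSPC.

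Of 10 genes of eicosanoid export, uptake and inactivation, *Abcc1*, which encodes an exporter of leukotriene C4, was higher in MEG than in ERY by 3.31 (SE 0.20, adjusted p = 8.43e-08, limma) and lower in ERY than in HSPC, at -2.34. In MEG against HSPC it was 0.97, and was called without HSPC array 2 (1.05), MEG array 2 (1.07) or MEG array 3 (1.06). *Ptgr1*, a prostaglandin reductase gene, was lower than in HSPC in MEG, at -1.58, and in ERY, at -1.40, and *Ptgr2* was higher in MEG than in HSPC by 1.11, which fell under 2-fold without HSPC array 4 (0.87), MEG array 2 (0.98) or HSPC arrays 3 and 4 (0.60). In ERY *Ptgr2* was 0.90 against HSPC, called higher without HSPC array 1 (1.17) or HSPC arrays 1 and 2 (1.41). *Cyp4f13* was lower in ERY than in HSPC, at -1.81, and higher in MEG than in ERY by 1.45. Of 8 cytochrome P450 epoxygenase and epoxide hydrolase genes, 0 were called in MEG against HSPC by limma, where 1 was lower at an unadjusted p under 0.05. Of all genes, 8.77% were called higher and 11.4% lower in that comparison, so 0 of 8 is little different. *Cyp2c23* was higher in ERY than in HSPC by 1.02 and lower in MEG than in ERY, at -1.49. The *Cyp2c23* difference in ERY was under 2-fold without HSPC array 3 (0.87), ERY array 1 (0.95), ERY array 2 (0.91) or HSPC arrays 3 and 4 (0.79). Of 10 hepatocyte markers, 8 were also called higher in ERY than in HSPC (8.35% of all genes), with a median difference of 1.65. In MEG, 8 were called lower than in HSPC (11.4%) and 10 lower than in ERY (7.77%). Their summed level was up to 15.16 in ERY, 12.64 to 14.22 in HSPC and 9.73 to 11.05 in MEG. The part of such cells in the *Cyp2c23* differences was not tested.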

How the data were processed

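RNA of MEG, ERY and HSPC was hybridised to Mouse Gene ST arrays, and the study's methods call the 4 arrays per population biological replicates. The authors deposited RMA values in log2 units, 1 for each probe set on each array. The RMA version is not given in the sources used here. RMA corrects background, equalizes the arrays and summarizes probes, so differences of total RNA between populations are removed. No depth applies to arrays, and the number of arrays limits the precision.

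Of 34760 probe sets, 21640 carried 1 symbol, 1321 carried several and 11799 were not annotated; the last 2 kinds were left out. The probe set with the highest mean was taken for each of 19937 genes, 954 of which had more than 1. The model, run in limma 3.58.1 (R 4.3.3), had a mean for each population over 12 arrays, with Benjamini-Hochberg adjustment and calls above 2-fold at an adjusted p under 0.05. The code was tested on simulated data. Promoters came from RefSeq (GRCm38.p6). Tables used pandas 2.3.3 and numpy 2.4.6, and figures matplotlib 3.10.9, under Python 3.11.15.

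Members and gene lists were chosen with earlier results of these data known. Named genes were all members, of each pathway list up to 2 called higher and up to 2 called lower with the largest change in each comparison, called receptors of the members' products, and the 3 genes nearest to each member. Alternatives covered the samples in the fit, the replicate number as a block, each array left out, HSPC and MEG array pairs left out, a filter on low values, quantile normalization, centring on 54 ribosomal protein genes, the mean over probe sets, variance models, array weights and thresholds. Leaving out arrays for single pathway genes and pathway counts was chosen after seeing the data.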

Additional observations from a re-analysis of the deposited data

Results flagged for a closer look

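With 27 groups of 4 arrays tested for a value far from the others, which chance alone flags in about 1 group in 20, 2 values stood out. *Tbxas1* on HSPC array 1 was the lowest of its group, 6.91 against 7.32 to 7.40 on the other HSPC arrays, and the gap was 0.830 of the range, just past the critical value of 0.829; without that array MEG exceeded HSPC by 3.82. *Hpgds* on ERY array 1 was the lowest, 5.85 against 6.53 to 6.62, with a gap of 0.878 of the range.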

How the results depend on the processing

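The calls of *Alox12*, *Tbxas1*, *Alox5* and *Pla2g4a* in MEG against HSPC, and the numbers of enzymes called lower in MEG against either population, were the same under every alternative run. Of the values of single enzymes under the alternatives, 696 kept their direction and their side of the threshold, 24 passed it where the main value did not, 6 no longer passed and 3 turned sign. Centring on ribosomal protein genes moved the median of all genes by 0.46 in MEG and 0.39 in ERY against HSPC; it called 8 enzymes, 3583 genes higher and 1112 lower in MEG, and 2 enzymes, 2795 genes higher and 1479 lower in ERY, so that 76.3% of calls in MEG and 65.4% in ERY were higher, against 43.5% and 40.5%. *Ltc4s* in ERY against HSPC was then 0.0052. Array weights called 2653 genes higher in MEG than in HSPC and 2 enzymes higher in ERY than in HSPC. Leaving out HSPC arrays 3 and 4 called 1077 genes higher in MEG. In ERY against HSPC, 1 enzyme was called higher without HSPC arrays 1 and 2 and with quantile normalization, and 0 to 1 with each array left out, the 1 without HSPC array 1. Leaving out each array gave -0.20 to 0.46 for *Hpgd* in MEG against ERY, with -0.03 without MEG array 2 and -0.20 without MEG array 3. A test against the 2-fold threshold called 527 higher and 492 lower in MEG against HSPC, 595 and 837 in ERY against HSPC, and 713 and 618 in MEG against ERY; it no longer called *Hpgds* in MEG against HSPC, *Pla2g4a* in ERY against HSPC (adjusted p = 0.291) or *Ptgs2* in MEG against ERY, and an FDR of 1% also lost *Ptgs2* in MEG against ERY. A 1.5-fold threshold called 3648 lower in MEG than in HSPC and 2325 lower in MEG than in ERY. The cause of these changes was not tested. Of 12 pairs of arrays with the same replicate number, 4 correlated above 0.1, so the numbers were not taken to pair the arrays; with the replicate number as a block, MEG against HSPC gave 1754 genes called higher and 2255 called lower, and the counts of enzymes called were 5, 3 and 6 as without it.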
